A study of Mus musculus with 16 samples.

Results

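The 6 immunity-related GTPase (IRG) genes *Irgm1*, *Irgm2*, *Igtp*, *Iigp1*, *Tgtp1* and *Tgtp2* were examined in bulk RNA from mouse hamstring muscle. They were taken by gene symbol from a table of 26382 genes, and all 6 were found and passed the filter on low values. The model is HRS-induced myositis, in which recombinant histidyl-tRNA synthetase (HRS, the Jo-1 autoantigen) is injected into muscle. All mice were female C57BL/6 animals of 8 to 10 weeks, and muscle was taken 14 days after injection. In mice m862 to m866, the labels place HRS (3 to 5 mg/mL) in the left leg and PBS in the right, which gave 5 HRS legs and 5 contralateral PBS legs. The 4 PBS-only libraries are the right and left legs of 2 further mice, m867 and m868, that had PBS alone. The last 2 libraries come from m860 and m861, whose titles name an MBP fusion protein (2 to 3 mg/mL) and no leg while the treatment label reads HRS, and they were kept apart as HRS-MBP. The protocol text describes injection of both hamstrings, whereas the titles separate the legs, and the titles were followed.

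IRG proteins are GTPases that cells make in response to interferons, above all IFN-γ, and they defend cells against pathogens that live inside vacuoles. The GMS proteins (*Irgm1*, *Irgm2* and *Igtp*, which encodes Irgm3) sit on the cell's own membranes and keep the other IRG proteins inactive there. The GKS proteins (*Iigp1*, which encodes Irga6, and *Tgtp1* and *Tgtp2*, which encode Irgb6) are effectors that load onto the pathogen's vacuole and disrupt it. They are low in most resting tissues and are made by macrophages and by many nonimmune cells once interferon is present.

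The nucleotide-binding loop that names both subfamilies was read from the GENCODE M21 coding sequences (GRCm38), and is shown because it separates regulators from effectors. Capitals mark the codon behind the M or K of these names, ATG for methionine in the GMS genes and AAG for lysine in the GKS genes. Other codons of the loop differ between them as well.
Irgm1, Irgm2 and Igtp: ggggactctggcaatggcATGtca
Tgtp1 and Tgtp2: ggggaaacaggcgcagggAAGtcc
The loop lies in exon 3 of *Irgm1* (chr11:48866761-48866784, minus strand), exon 2 of *Irgm2* (chr11:58219695-58219718, plus strand) and exon 3 of *Igtp* (chr11:58206275-58206298, plus strand). It lies in exon 2 of *Tgtp1* (chr11:48987667-48987690) and of *Tgtp2* (chr11:49059534-49059557), both on the minus strand. *Iigp1* carries the AAG codon as well, and its sequence is not printed. Over the whole coding sequence, the GMS genes were 62.2% to 67.1% identical to each other. *Tgtp1* and *Tgtp2* were 99.7% identical, with 4 substitutions in 1245 bases.

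The 100 bases before the RefSeq start (GRCm38.p6) are shown for the 5 members that the RefSeq table holds, because the members moved together in the muscle. Capitals mark a gamma-activated sequence (GAS, TTCNNNGAA) and the core of the interferon-stimulated response element (ISRE, GAAA, any 2 bases and GAAA), searched on both strands.
Irgm1: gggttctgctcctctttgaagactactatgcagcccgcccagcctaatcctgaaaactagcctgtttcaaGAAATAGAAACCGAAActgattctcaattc
Irgm2: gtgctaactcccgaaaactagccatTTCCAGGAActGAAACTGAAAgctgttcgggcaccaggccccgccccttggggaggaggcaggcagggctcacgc
Igtp: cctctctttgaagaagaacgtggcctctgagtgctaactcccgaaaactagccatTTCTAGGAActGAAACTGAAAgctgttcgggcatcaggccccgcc
Tgtp1: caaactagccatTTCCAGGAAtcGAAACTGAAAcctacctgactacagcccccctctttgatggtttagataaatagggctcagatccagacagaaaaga
Tgtp2: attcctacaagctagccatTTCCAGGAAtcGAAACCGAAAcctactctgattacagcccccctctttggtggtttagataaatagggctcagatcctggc
In 4 of these 5 windows, a GAS match was followed by an ISRE core whose first base lay 11 bases further on. The *Irgm1* window held overlapping ISRE cores, with first bases at -30 and -24 from the start, and no GAS match in these letters. Among the 32851 windows of 100 bases in the table, an ISRE core was found in 0.983%, a GAS match in 2.55% and both in 0.0457%. A match describes the sequence and was not tested for binding. The windows lie at chr11:48871421-48871520 (*Irgm1*, minus strand), chr11:58214877-58214976 (*Irgm2*), chr11:58199456-58199555 (*Igtp*), chr11:48992247-48992346 (*Tgtp1*, minus strand) and chr11:49064213-49064312 (*Tgtp2*, minus strand). The *Irgm1* window falls inside an exon of a noncoding GENCODE transcript of the same gene, and 12 bases of the *Tgtp1* window lie in an exon of a coding transcript of *Tgtp1*.

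The libraries held an implied 8600000 to 73900000 reads, as worked out from the step between low values. The legs of m868 were the 2 shallowest libraries. Values are the normalized counts deposited by the authors, and a gene was called at an adjusted p below 0.05 (limma, Benjamini-Hochberg over 16414 genes) with an absolute log2 fold change above 1. Muscle fibre markers summed to between 38959 and 190229 in every library. Macrophage markers summed to between 1119 and 5553 in HRS legs, 122 and 322 in contralateral PBS legs, 114 and 238 in PBS-only legs and 4448 and 4841 in HRS-MBP. The HRS leg of m866 stood apart from the other HRS legs. It had the lowest macrophage sum of the 5 (1119) and the highest muscle fibre sum (161143, against 38959 to 95505), and it was the lowest HRS leg for 90.1% of the 2781 genes called higher in HRS than in contralateral PBS legs.

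All 6 IRG genes were higher in the HRS leg than in the contralateral PBS leg, in 5 of 5 mice. By limma, 6 of 6 were called higher. Of all tested genes, 16.9% were called higher, 6.27% lower and 23.2% either way. Their median log2 fold change was 3.10, and that of all tested genes was 0.077. In bulk muscle, fewer cells of a type and less RNA per cell cannot be told apart, so these values describe the tissue. Both legs of a mouse were compared in this way to ask what HRS changed at the injected site.

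*Irgm1*, a GMS regulator that controls membrane traffic and autophagy, stood at 236, 116, 336, 103 and 461 normalized counts in the HRS legs of m862, m863, m864, m865 and m866, and at 29.8, 26.7, 33.0, 24.1 and 25.4 in their PBS legs. The contralateral values lay within a narrow band, with an SD of 3.61 around a mean of 27.8, whereas the HRS legs had an SD of 151 around 250.4 (n = 5 each). The lowest HRS leg (m865) was above the highest contralateral leg. *Irgm1* rose by a log2 fold change of 2.92 (SE 0.35, adjusted p = 1.59e-05), with the smallest SE of the 6 genes, and by 2.65 without the HRS leg of m866.

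*Irgm2*, a regulator found mainly on Golgi membranes, stood at 441, 226, 437, 147 and 945 in the HRS legs of m862 to m866, and at 43.5, 36.3, 59.3, 28.6 and 41.6 in the contralateral PBS legs. The groups did not overlap, and m866 was the highest HRS leg while its PBS leg was the median of its group. The log2 fold change was 3.13 (SE 0.39, adjusted p = 2.17e-05), and 2.78 without the HRS leg of m866. *Igtp*, a regulator found mainly on the endoplasmic reticulum, stood at 429, 171, 468, 93.6 and 1068 in the HRS legs and at 25.1, 15.3, 48.8, 15.3 and 26.7 in the contralateral PBS legs. The HRS legs spanned an 11.4-fold range, the widest of the 6 genes in that group, and still did not overlap the PBS legs. *Igtp* rose by 3.73 (SE 0.57, adjusted p = 0.000113), and by 3.29 without the HRS leg of m866.

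Among the GKS effectors, *Iigp1* had the highest counts and the largest rise. It stood at 735, 285, 970, 206 and 1231 in the HRS legs of m862 to m866, and at 39.6, 20.9, 65.7, 21.4 and 45.3 in the contralateral PBS legs. The groups were far apart, and m863 and m865 were the lowest mice in both of them. The log2 fold change was 3.96 (SE 0.58, adjusted p = 8.11e-05), and 3.67 without the HRS leg of m866. It ranked 76 of 16414 genes by log2 fold change, the highest rank of the 6 members.

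*Tgtp1* stood at 63.4, 28.1, 153, 21.4 and 76.1 in the HRS legs of m862 to m866, and at 14.7, 3.88, 20.2, 3.74 and 13.3 in the contralateral PBS legs. The groups were close, since the lowest HRS leg (m865) was just above the highest PBS leg (m864). The log2 fold change was 2.50 (SE 0.72, adjusted p = 0.00766), the smallest rise with the largest SE. *Tgtp2* stood at 156, 84.0, 332, 70.7 and 173 in the HRS legs and at 18.2, 8.44, 32.2, 10.8 and 19.9 in the contralateral PBS legs. Its groups did not overlap, and for both *Tgtp* genes the highest HRS leg was m864, not m866. *Tgtp2* rose by 3.08 (SE 0.57, adjusted p = 0.000506). Without the HRS leg of m866, the log2 fold changes were 2.38 for *Tgtp1* and 3.00 for *Tgtp2*.

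**Figure D1:**
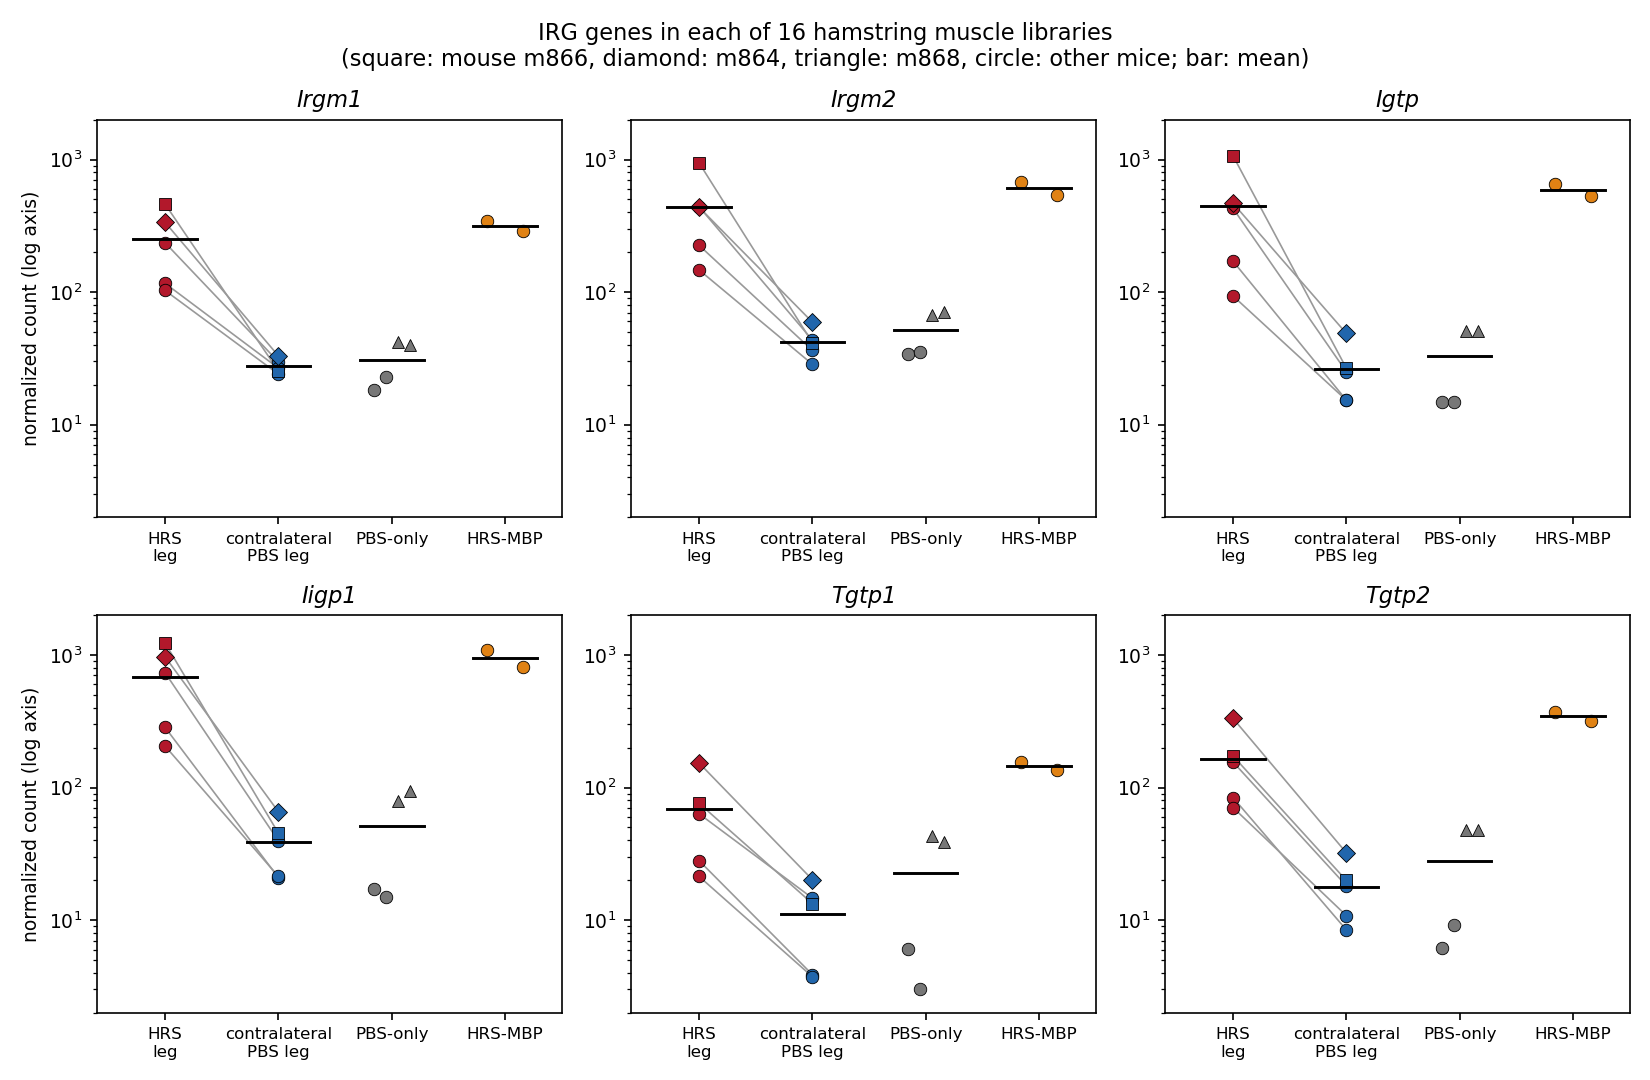
Normalized counts of the 6 IRG genes (y axis, log scale) in each of 16 libraries by group (x axis), with points for libraries, black bars for group means and grey lines joining the legs of a mouse. Every HRS leg lies above every contralateral PBS leg, m866 (square) is the highest HRS leg for *Irgm1*, *Irgm2*, *Igtp* and *Iigp1*, and m868 (triangles) lies above m867 in PBS-only mice.

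Within single mice, the HRS leg exceeded the PBS leg by 4.28-fold to 18.1-fold for *Irgm1*, 5.15-fold to 22.7-fold for *Irgm2*, 6.12-fold to 40.1-fold for *Igtp* and 9.63-fold to 27.2-fold for *Iigp1*. For each of these 4 genes, the smallest ratio was that of m865 and the largest that of m866. The range was narrower for *Tgtp1* (4.33-fold to 7.59-fold) and *Tgtp2* (6.53-fold to 10.3-fold), with the largest ratio in m864. The SD of the log2 difference over 5 mice was 0.31 and 0.26 for the *Tgtp* genes and between 0.56 and 1.03 for the others. An exact two-sided permutation of the 10 libraries gave p = 0.00794 for each gene, the smallest that 5 against 5 allows. Exact sign flips over the 5 mice gave p = 0.0625, also the smallest possible.

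The sizes of the rises were compared through the log2 ratio of each gene pair within a library. With all 10 libraries, *Iigp1* rose more than *Irgm1*, *Irgm2*, *Tgtp1* and *Tgtp2*, a result that depended on single libraries. The *Iigp1* to *Irgm1* log2 ratio was 1.37 ± 0.25 in HRS legs and 0.34 ± 0.59 in contralateral PBS legs (SD, n = 5 each), a difference of 1.03. Against *Irgm2* the difference was 0.83, against *Tgtp2* 0.88, and against *Tgtp1* 1.46. In all 4 pairs, the HRS and PBS legs did not overlap and the ratio was higher in the HRS leg of 5 of 5 mice. Over the 15 pairs of members, these 4 passed by an exact permutation test (p = 0.00794, adjusted p = 0.0298 over 15 pairs). The other 11 pairs did not. The *Igtp* to *Iigp1* log2 ratio was -0.78 in HRS legs and -0.55 in contralateral PBS legs (adjusted p = 0.310, same exact test). With 1 library left out (chosen after seeing the data), the 4 differences kept their direction, but 0 of 15 pairs passed without the HRS leg of m862 or the PBS leg of m862, m863, m864 or m866. Without the HRS leg of m866, 3 pairs passed, and *Iigp1* to *Irgm1* differed by 1.02 (exact test, adjusted p = 0.0952). With legs paired by mouse (exact sign flips), 0 of 15 pairs passed (lowest adjusted p = 0.134), a design whose smallest unadjusted p is 0.0625.

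**Figure D2:**
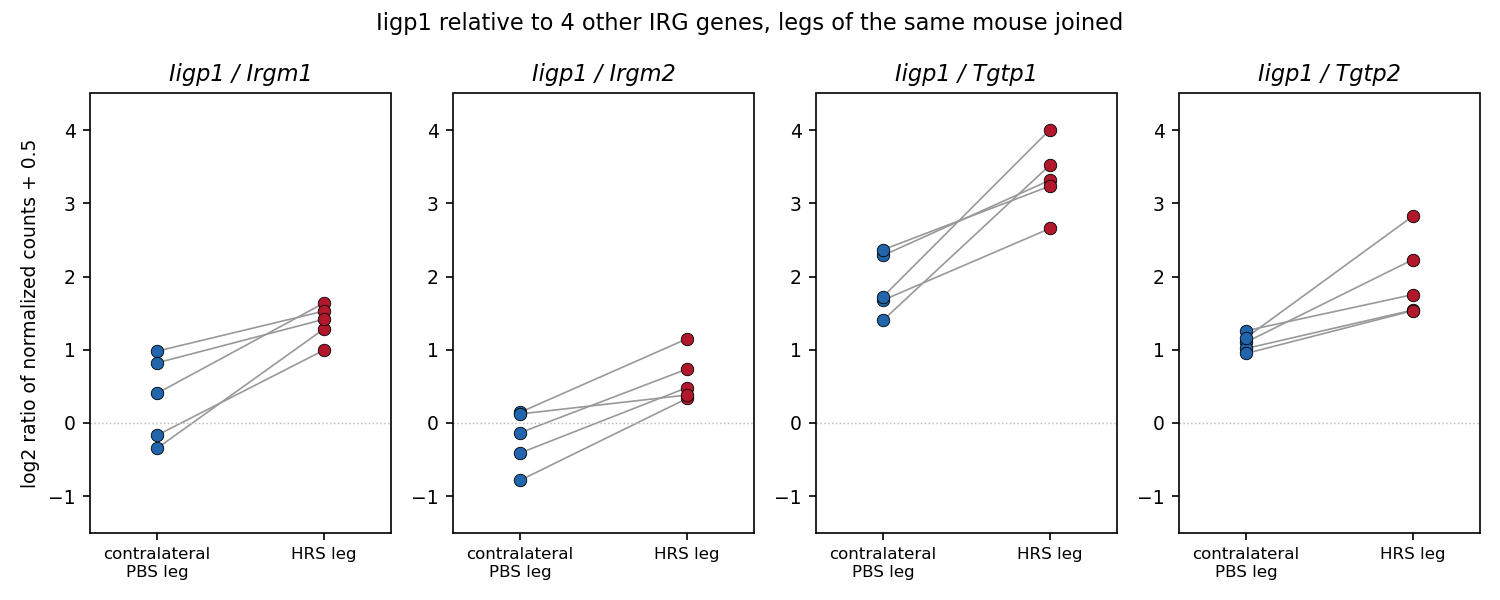
Log2 ratio of *Iigp1* to 4 other IRG genes (y axis, normalized count + 0.5) in contralateral PBS and HRS legs (x axis), with points for libraries and lines joining the legs of a mouse. All 5 lines rise in each panel, and the smallest mean difference is that to *Irgm2* (0.83) and the largest that to *Tgtp1* (1.46).

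The IRG genes ranked the HRS legs in another order than most genes did. Among the 2781 genes called higher in HRS legs, m866 was the lowest of the 5 legs for 90.1%, as given above, and the highest for 31 genes (1.11%). The leg of m862 was the highest for a like share (29 genes, 1.04%), and m864 for 70.6%. *Irgm1*, *Irgm2*, *Igtp* and *Iigp1* were among the 31. Relative to m864, m866 was 1.37-fold for *Irgm1*, 2.16-fold for *Irgm2*, 2.28-fold for *Igtp* and 1.27-fold for *Iigp1*, but 0.496-fold for *Tgtp1* and 0.521-fold for *Tgtp2*. These ranks hold on the deposited scale, where counts totalled 1162000 in m866, 726797 in m864 and at most 871400 in the other HRS legs. The order of the legs was not tested under another scaling. The lowest HRS leg was m865 for all 6 members. In contrast, m866 was the lowest HRS leg for all 8 macrophage markers and for all 6 T cell markers called higher. It was the lowest for 2 of 4 B cell markers and 1 of 4 NK cell markers, and its NK cell sum (10.5) was above that of m865 (8.36) and below those of the other HRS legs (12.3 to 28.4). T cell markers summed to 23.9 in m866 and to 39.1 to 121 in the other HRS legs, and the share of mitochondrial counts was 11.1% in m866 against 3.41% to 6.29%. The part of these differences in the IRG values was not tested.

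**Figure D3:**
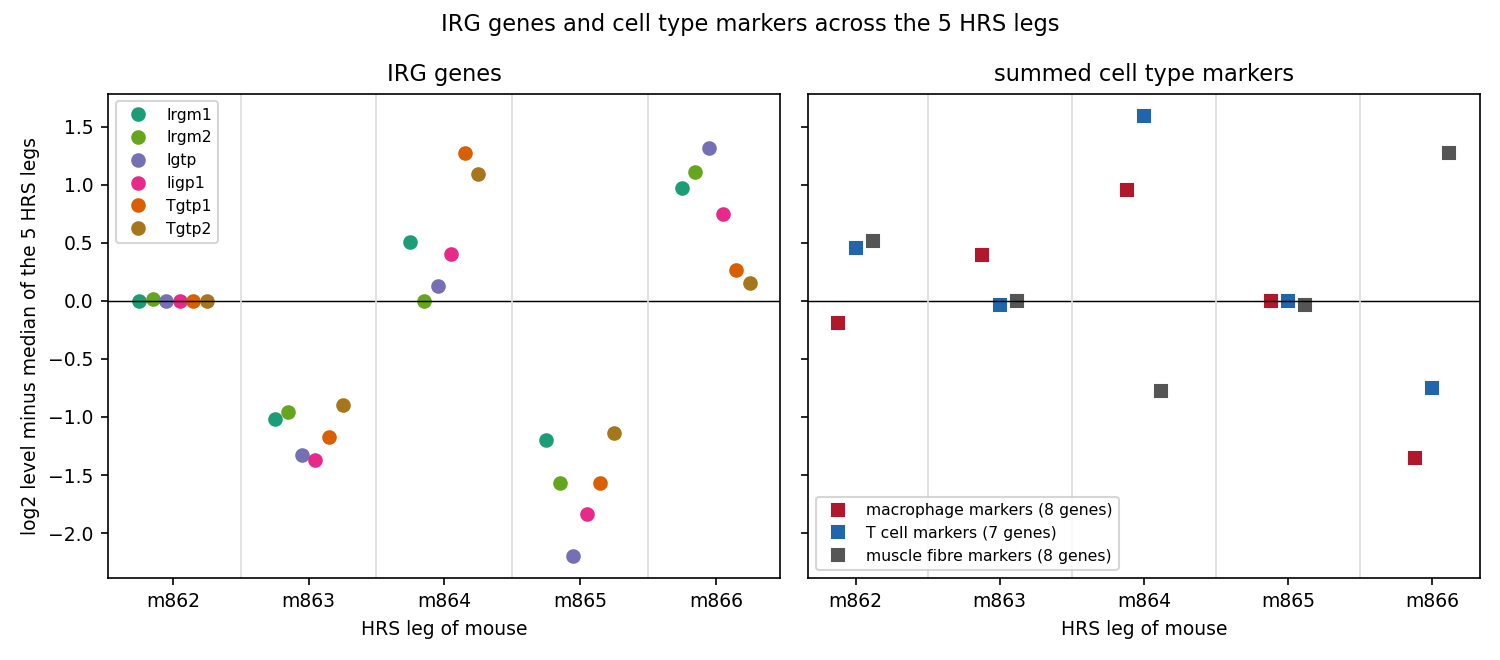
Left, level of each IRG gene in the 5 HRS legs (x axis) as log2 minus the median of the 5 legs (y axis). Right, summed macrophage, T cell and muscle fibre markers on the same scale; in m866 all 6 IRG genes lie above their medians while the macrophage and T cell sums lie below theirs.

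Against mice that never received HRS, all 6 genes were again higher in HRS legs. The PBS-only legs served as a control that no HRS mouse contributed to, and the same HRS legs enter both comparisons. The PBS-only values depended on the mouse. *Irgm1* stood at 18.3 and 23.0 in the right and left legs of m867, and at 41.9 and 39.8 in those of m868. *Irgm2* stood at 34.3 and 35.5 in m867 and at 67.5 and 71.4 in m868, and *Igtp* at 14.9 in both legs of m867 and at 51.2 and 51.0 in m868. The legs of a mouse were alike and the mice were not, in each of these genes.

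The mouse difference was wider for the effectors. *Iigp1* stood at 17.3 and 14.9 in m867 and at 78.5 and 93.9 in m868, a 5.36-fold ratio of the mouse means. *Tgtp1* stood at 6.03 and 3.04 in m867 and at 42.9 and 38.9 in m868, which was 9.01-fold. *Tgtp2* stood at 6.12 and 9.13 in m867 and at 47.8 in both legs of m868, which was 6.27-fold. Both legs of m868 were above both legs of m867 for 6 of 6 members and for 10% of all tested genes, with a median log2 ratio of -0.08 over all tested genes. Macrophage markers in m868 summed to 238 and 209, and in m867 to 185 and 114. In *Tgtp1*, the legs of m868 exceeded 2 of the 5 HRS legs (28.1 in m863 and 21.4 in m865), so the groups overlapped. In the other 5 genes, every HRS leg was above every PBS-only leg.

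By limma, 6 of 6 members were called higher in HRS than in PBS-only legs. Of all tested genes, 18.9% were called higher, 5.87% lower and 24.8% either way. The log2 fold change was 2.86 for *Irgm1* (SE 0.37, adjusted p = 2.99e-05), 2.86 for *Irgm2* (SE 0.42, adjusted p = 7.27e-05) and 3.52 for *Igtp* (SE 0.60, adjusted p = 0.000265). It was 3.87 for *Iigp1* (SE 0.62, adjusted p = 0.000151), 1.95 for *Tgtp1* (SE 0.76, adjusted p = 0.0374) and 2.84 for *Tgtp2* (SE 0.60, adjusted p = 0.00125). The exact two-sided permutation test gave p between 0.00794 and 0.0159 for all but *Tgtp1*, which gave p = 0.111. Without the HRS leg of m866, the rises ran from 1.82 to 3.58. They ran from 3.34 to 5.06 without m868. Without m867 they ran from 1.54 to 2.68 in 5 genes, whereas *Tgtp1* was at 0.39 (adjusted p = 0.672) and was no longer called. The *Tgtp1* call rested on single libraries too. Its adjusted p was 0.0643, 0.0954 or 0.0552 without the HRS leg of m862, m864 or m866, and 0.116 or 0.152 without the right or left leg of m867.

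The contralateral PBS legs were then set against the PBS-only legs, to ask whether the PBS-injected leg of an HRS mouse differed. None of the 6 members was called (0 of 6), and limma called 0.00609% of all tested genes, with 902 genes at an unadjusted p below 0.05. The unadjusted p of the 6 members ran from 0.475 to 0.888. The log2 differences (contralateral minus PBS-only) were -0.07 for *Irgm1* (95% interval -0.87 to 0.73), -0.27 for *Irgm2* (-1.16 to 0.61), -0.21 for *Igtp* (-1.49 to 1.07) and -0.09 for *Iigp1* (-1.40 to 1.22). They were -0.56 for *Tgtp1* (-2.18 to 1.06) and -0.24 for *Tgtp2* (-1.52 to 1.03). All 6 pairs of groups overlapped. The upper end of each interval was below the log2 fold change of the same gene in HRS against PBS-only legs. For *Tgtp1*, that fold change had its own interval of 0.33 to 3.56, and the 2 intervals overlapped. Both contrasts share the PBS-only legs, and the intervals treat the legs of a mouse as independent. Without m868, all 6 differences turned positive, at 0.22 to 1.10. Without m867 they ran from -0.55 for *Irgm1* to -2.11 for *Tgtp1*. None was called either way.

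HRS-MBP muscle had the highest group means of all 6 genes, although its values overlapped those of the HRS legs in each gene. The HRS leg of m866 was above both HRS-MBP libraries for *Irgm1*, *Irgm2*, *Igtp* and *Iigp1*. In m860 and m861, *Irgm1* stood at 345 and 290.3, *Irgm2* at 672 and 539, and *Igtp* at 657 and 529. *Iigp1* stood at 1091 and 811, *Tgtp1* at 157 and 134, and *Tgtp2* at 373 and 318. Both libraries were above every PBS-only leg for each gene and close to each other, with a ratio of 1.17 to 1.34 between them. Macrophage markers (4448 and 4841) were above all HRS legs but that of m864.

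By limma, 6 of 6 members were called higher in HRS-MBP than in PBS-only legs. Of all tested genes, 20.7% were called higher, 10.2% lower and 30.9% either way. The log2 fold changes were 3.43 for *Irgm1* (SE 0.48), 3.60 for *Irgm2* (SE 0.54), 4.39 for *Igtp* (SE 0.78), 4.64 for *Iigp1* (SE 0.80), 3.37 for *Tgtp1* (SE 0.98) and 4.14 for *Tgtp2* (SE 0.77). The adjusted p lay between 4.88e-05 for *Irgm1* and 0.00938 for *Tgtp1*. An exact permutation of 2 against 4 libraries cannot give p below 0.0667, the value for 5 of the genes. *Tgtp1* gave p = 0.133 by that exact test. Without m868, the log2 fold changes ran from 3.91 to 5.83, and without m867 from 2.84 to 3.52 in the 5 genes still called. *Tgtp1* was no longer called by limma without m867 (1.82, adjusted p = 0.100) or without m860 (3.26, adjusted p = 0.0625), where the lone HRS-MBP library is assumed to vary like the other groups.

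Set directly against the HRS legs, HRS-MBP had 0 of 6 members called, with 0.463% of all tested genes called (0.396% higher, 0.067% lower) and 2371 genes at an unadjusted p below 0.05. The 76 calls behind this share became 590 without the HRS leg of m864, 180 without that of m866 and 4 with only the 2 groups in the fit, with 0 members called in each. The unadjusted p of the members ran from 0.103 to 0.334. All 6 differences were positive, from 0.57 for *Irgm1* (95% interval -0.42 to 1.56) to 1.30 for *Tgtp2* (-0.29 to 2.89) and 1.43 for *Tgtp1* (-0.59 to 3.44). Each interval reached past 1, so a difference of more than 2-fold is not excluded by 2 libraries. Without the HRS leg of m866 the differences ran from 0.85 to 1.55, with none called. Protein concentration and fusion protein differed between these groups and cannot be told apart, and the leg of the HRS-MBP mice is not stated.

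**Figure D4:**
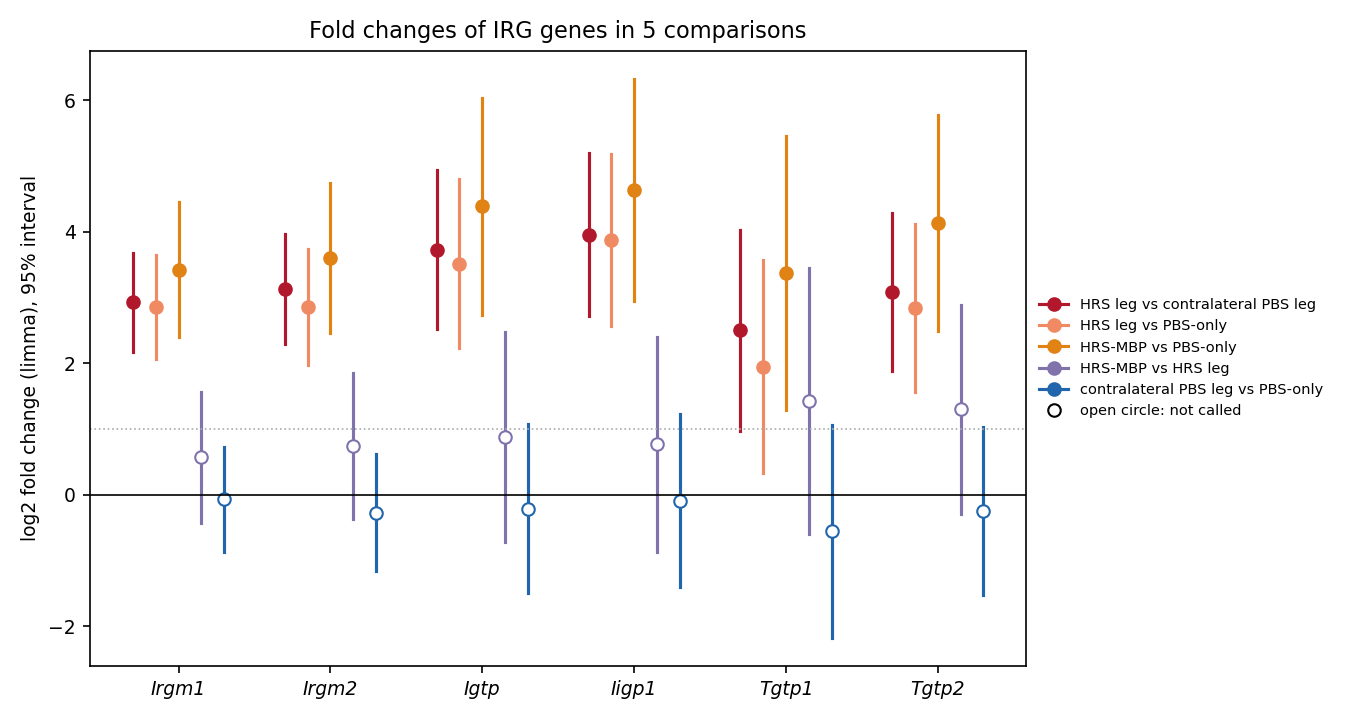
Log2 fold change of the 6 IRG genes by limma (y axis, points) with 95% intervals (lines) in 5 comparisons (colours), where filled points were called. All points of the 3 comparisons of HRS or HRS-MBP with PBS are called, and all intervals of the other 2 comparisons include 0.

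Levels were compared between genes per kilobase of exon, counted over all annotated transcripts of a gene. This length was 2.02 kilobases for *Igtp* and 5.82 for *Iigp1*, whose coding sequences hold 1269 and 1239 bases. The order between genes depends on these lengths, and no other length was tested. In HRS legs, the order was *Igtp* (221 ± 190 normalized counts per exonic kilobase, SD, n = 5), *Irgm2* (119 ± 84.3), *Iigp1* (118 ± 75.4), *Tgtp2* (55.6 ± 35.6), *Irgm1* (43.1 ± 26.0) and *Tgtp1* (21.4 ± 16.5). Without the HRS leg of m866, *Igtp* was at 144 ± 91.9 (n = 4), and the means of *Irgm2* (84.7 ± 40.5) and *Iigp1* (94.2 ± 62.7) changed places. *Irgm2* and *Iigp1* were not told apart, since only 3 of 5 legs held this order. *Tgtp2* was above *Irgm1* in 4 of 5 legs, and the other neighbours kept their order in 5 of 5. In contralateral PBS legs, *Igtp* (13.0 ± 6.77) and *Irgm2* (11.3 ± 3.08) came first, followed by *Iigp1* (6.62 ± 3.20), *Tgtp2* (6.09 ± 3.18), *Irgm1* (4.78 ± 0.62) and *Tgtp1* (3.48 ± 2.24). There, *Irgm2* was above *Iigp1* in 5 of 5 legs, whereas *Igtp* exceeded *Irgm2* in 3 of 5. In PBS-only legs, *Tgtp1* exceeded *Irgm1* in 2 of 4 legs, those of m868.

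The members lie on chromosome 11, apart from *Iigp1* (chr18:60376027-60392634, plus strand). How reads were split between near copies bears on the levels. Of 50-base windows in the *Tgtp1* transcripts, 79.4% occur in *Tgtp2*, and 85.8% of those of *Tgtp2* occur in *Tgtp1*. In the 9 PBS libraries, values were whole reads (tolerance 0.02 reads) in 9 of 9 for *Irgm1*, 4 of 9 for *Iigp1*, 1 of 9 for *Irgm2* and for *Igtp*, and 0 of 9 for *Tgtp1* and for *Tgtp2*. The values of the 5 genes other than *Irgm1* therefore include fractions of reads and are uncertain to that extent. *Iigp1* shared no 50-base window with the other members, and *Igtp* shared 11.8% of its windows with *Irgm2*. The sum of the *Tgtp* genes rose by a log2 fold change of 2.91 in HRS against contralateral PBS legs (SE 0.62, adjusted p = 0.00132, limma). Against PBS-only legs it rose by 2.53 (SE 0.65, adjusted p = 0.00429, limma). There, the exact permutation test gave p = 0.00794 for the sum, and the lowest HRS leg (92.1) was just above the highest PBS-only leg (90.6). The gene spans of *Irgm2* (chr11:58199618-58222782) and *Igtp* (chr11:58199556-58207591) overlap by 7974 bases on the plus strand, 162 of them in exons of both. Summed to 1 row, these genes rose by 3.39 against contralateral PBS legs (SE 0.47, adjusted p = 4.68e-05, limma). The *Tgtp1* span (chr11:48985327-48994172) overlaps *Gm12185*, another IRG gene on the same strand, by 6900 bases, 223 of them exonic.

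Other IRG genes moved with the members. Of 19 further symbols, 10 were in the table and 9 passed the filter, and 8 of the 9 were called higher in HRS than in contralateral PBS legs, with a median log2 fold change of 2.74. *Gm4841* rose most, by 5.45 (SE 0.53, adjusted p = 2.79e-06), and *Irgq*, a distant relative, was at -0.05 (SE 0.14, adjusted p = 0.748). *Gm12250*, with the RefSeq synonym *Irgb10*, an effector, stood at 23.9, 11.7, 50.3, 7.99 and 52.8 in the HRS legs of m862 to m866 and at 0.544 to 2.08 in the contralateral PBS legs. Its groups did not overlap and m866 was again the highest HRS leg. It rose by 3.69 (SE 0.57, adjusted p = 0.000125). GENCODE M21 types its locus in the table as a processed pseudogene, so its value covers that model only.

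The interferon genes upstream of the members were read from a fixed list. *Ifng*, which encodes IFN-γ, stood at 1.36, 0.741, 5.30, 0.349 and 1.43 in the HRS legs of m862 to m866 and at 0 in all 5 contralateral PBS legs. The lowest was m865, as for all 6 members, and the highest was m864, as for the *Tgtp* genes. Against a floor of 3 reads per contralateral library, the HRS mean was at least 20.3-fold higher (at least 10.7-fold without m864), and *Ifng* was called by limma (adjusted p = 0.000744). *Irf1*, an interferon-induced transcription factor, stood at 138, 111, 307, 77.3 and 162 in HRS legs and at 13.9 to 24.1 in the PBS legs. The groups did not overlap, and it rose by 2.91 (SE 0.36, adjusted p = 1.93e-05).

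Of 14 genes of the IFN-γ pathway, 9 were called higher in HRS than in contralateral PBS legs and none lower. Their median was 1.66, also with *Ifng* at its bound. By fitted log2 fold change *Irf8* moved most (3.32, or 9.96-fold), although less than the bound for *Ifng*, and *Jak1*, a receptor kinase, least (-0.01). Of 5 tested genes of the type I interferon list, 3 were called higher, with *Irf7* at 2.47 and *Irf3* at 0.39. The ligand genes of that list were not among the deposited genes, so no type I ligand could be read. All 11 guanylate-binding protein genes, which encode larger interferon-inducible GTPases, were called higher, from 1.35 for *Gbp9* to 4.90 for *Gbp10*. Of 10 genes for the conjugation machinery of autophagy, which IRG proteins work with, 0 were called, with a median of -0.07, *Map1lc3b* at -0.70 and *Gabarapl1* at 0.02. The background share called higher is the 16.9% given above.

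Cell type markers moved in the same comparison of HRS with contralateral PBS legs, where 16.9% of all tested genes were called higher and 6.27% lower. Called higher were 8 of 8 macrophage, 6 of 7 T cell, 4 of 4 NK cell, 4 of 4 B cell, 4 of 4 tested neutrophil and 3 of 5 fibroblast markers. *Ly6g* was at 0 in every contralateral PBS and PBS-only library. Called lower were 3 of 3 adipocyte and 4 of 8 muscle fibre markers, and 0 of 5 endothelial markers were called either way. T cell markers summed to 23.9 to 121 in HRS legs and to 4.77 to 12.8 in contralateral PBS legs. Their part in the IRG values was not tested.

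The genes most like each member were found by the root-mean-square difference between log2 profiles centred on their own means, over 16 libraries and 16408 genes outside the members. The 3 nearest genes of *Irgm1* included *Socs1* (0.37) and *Gbp7* (0.38), and those of *Irgm2* included *Gbp7* (0.42) and *Irf1* (0.46). *Igtp* was closest to *Gbp6* (0.29), *Gm12250* (0.42) and *Gbp2* (0.55). *Iigp1* had the same 3 neighbours, at 0.21, 0.39 and 0.48. *Tgtp1* was closest to *Gbp5* (0.37), *Cd274* (0.40) and *Gbp4* (0.46), and *Tgtp2* to *Gbp2* (0.22), *Gbp5* (0.33) and *Tap1* (0.38). Within the family, *Irgm1* and *Irgm2* were nearest to each other (0.23), as were *Igtp* and *Iigp1* (0.30), and the *Tgtp* genes were 0.52 apart.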

How the data were processed

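Poly(A) RNA libraries made with a directional kit were sequenced from hamstring muscle. The submitters' processing notes name STAR 2.7.8a, limma and the build mm39 (GRCm39) with no role. The gene coordinates of the table, however, match GENCODE M21 (GRCm38) for 98.9% of the genes found there by symbol and chromosome, so coordinates here are GRCm38. The authors deposited normalized counts, treated as a signal. Since only 74.9% to 77.0% of low values (per library) were whole multiples of 1 read, no count model was used. Whether counting used strand is not given in the sources used here. Groups came from the treatment, mouse and leg labels.

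Values were tested with limma 3.58.1 in R 4.3.3 (lmFit, eBayes with trend) on log2(value + 0.5). Genes with a mean of at least 0.5 entered 1 fit of 4 groups without a block. Fold changes are on that scale and understate those of low genes. The fit was tested on simulated data, in which 90% of 200 genes changed by 1.5 (log2) were recovered between HRS and contralateral PBS legs, with 3 false calls. Recovery was 86% (2 false calls) for HRS and 84.5% (3) for contralateral PBS against PBS-only legs. It was 75.5% (9) for HRS-MBP against PBS-only legs and 75% (6) for HRS-MBP against HRS legs. The simulation drew every library independently, so it leaves out the likeness between the legs of a PBS-only mouse. Legs with the same mouse number come from the same animal. Their deviations from group means correlated at 0.12, 0.16, 0.10, -0.03 and -0.37 in m862 to m866. No pair of libraries within a group agreed within counting noise (lowest chi-square per degree of freedom 10.4 over 27 pairs). Legs of PBS-only mice are not independent animals, and p-values treat them as such.

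The 6 members and all lists were chosen with earlier results of these data known. Named genes were the members, *Ifng*, *Irf1*, *Gm12250*, the largest and smallest change of each list, and the 3 nearest profiles of each member. A further gene that this rule names is not reported here. *Ly6g* and the genes highest in m866 were chosen after their values were seen. Alternatives covered the pseudocount, filter, scaling, variance model, voom, the block, and each library left out. Summing near copies, leaving out a PBS-only mouse, and leaving out single legs for the gene pairs, levels per kilobase and *Ifng* bound were added after seeing the data. Sequences were read with Biopython 1.88, and exact tests were run in Python 3.11.15.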

Additional observations from a re-analysis of the deposited data

Results flagged for a closer look

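In 18 groups of member values (6 genes in the HRS, contralateral PBS and PBS-only legs), no library stood apart by Dixon's test at the 95% level (0 of 18). In the PBS-only legs this says nothing about the mice, since the legs of m867 and of m868 lie in pairs, a layout in which the test cannot single out a library. HRS-MBP, with 2 libraries, could not be tested this way.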

How the results depend on the processing

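Of 626 values of the 6 members recomputed under an alternative, 597 kept their direction and their side of the threshold, 13 kept the direction and lost the call, 16 changed sign and 0 gained a call. In HRS against contralateral PBS legs, all 130 values kept their call, and with legs paired by mouse as a replicate block 6 of 6 members were called (adjusted p 0.000409 to 0.00186). In the pairs of members, the block took the number past the threshold from 4 to 0, whereas a smaller and a larger pseudocount gave 4 and 6, and leaving out 1 library (added after seeing the data) gave 0 to 4. The lost calls were all of *Tgtp1*. Against PBS-only legs it missed the threshold in 11 of 23 alternatives, among them no filter (adjusted p = 0.0515), median-ratio scaling (0.0555), quantile normalization (0.0591), 2 groups only (0.0666) and averaged legs (0.0854).

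The 16 sign changes were all between contralateral PBS and PBS-only legs, where no member was called. Without m868 the differences were 0.42 for *Irgm1*, 0.22 for *Irgm2*, 0.66 for *Igtp*, 1.10 for *Iigp1*, 0.99 for *Tgtp1* and 1.06 for *Tgtp2*, and without m867 they were -0.55, -0.76, -1.08, -1.28, -2.11 and -1.54 in the same order. With 1 library left out they ran from -0.28 to 0.11 for *Irgm1*, -0.50 to 0.081 for *Igtp*, -0.52 to 0.35 for *Iigp1* and -0.77 to 0.19 for *Tgtp2*. The cause was not tested. The contrast of HRS-MBP with HRS called 76 genes, 4 with 2 groups only, 590 without the HRS leg of m864, 180 without that of m866, 135 without m860 and 25 without m861, and 0 members in each. The last 2 leave 1 HRS-MBP library, assumed to vary like the other groups. In HRS against contralateral PBS legs, the median of all genes went from 0.077 to 0.0071 with median-ratio scaling, -0.16 with quantile normalization and 0.48 with voom, which also changes the offset and the weights. The share of calls that were higher went from 73.0% to 67.8%, 56.2% and 94.5%. With quantile normalization and voom, it went from 76.3% to 54.5% and 94.3% in HRS against PBS-only legs, and from 67.0% to 47.3% and 91.0% in HRS-MBP against PBS-only legs. The shallow libraries of m868 limit low genes, and 2 PBS-only mice limit every contrast with them.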

Other observations

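The 31 genes for which m866 was the highest HRS leg were read after their values were seen. They were drawn from those called higher in HRS than in contralateral PBS legs, on the deposited scale. Besides *Irgm1*, *Irgm2*, *Igtp* and *Iigp1*, they held the IRG genes *Gm4841* (2057 normalized counts in m866, 932 in the next HRS leg), *Gm12185* (276 and 156), *F830016B08Rik* (199 and 90.7) and *Gm12250* (52.8 and 50.3). They also held the guanylate-binding protein genes *Gbp10* (302 and 199.6), *Gbp6* (408 and 396) and *Gbp7* (238 and 235). These lists did not move as a whole. Among the genes called higher, m866 was the highest HRS leg for 4 of 8 other IRG genes and the lowest for 3, and the highest for 3 of 11 guanylate-binding protein genes and the lowest for 1. It was the highest for 0 of 9 IFN-γ pathway genes and the lowest for 2, and the highest for 0 of 3 genes of the type I interferon list and the lowest for 3. Outside these lists, *Ifit3* stood at 95.8 and 78.6, *Usp18* at 13.2 and 12.3, *Cmpk2* at 26.7 and 21.9 and *Mx2* at 3.68 and 3.47. Immunoglobulin genes were present too, with *Ighm* at 354 and 229, *Ighg1* at 56.5 and 15.8 and *Jchain*, which joins secreted antibodies, at 43.1 and 42.2. *Cxcl13*, a B cell chemokine, stood at 19.0 and 6.57. None of the B cell, T cell or macrophage markers was among the 31, and B cell markers summed to 3.38 in m866 against 10.9 to 31.7 in the other HRS legs.

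The contralateral PBS leg of m866 had the highest adipocyte marker sum of all libraries (2954, against 29.0 to 474 in the other 15) and the lowest muscle fibre sum of the 9 PBS libraries (116279). Its IRG values lay within those of the other contralateral PBS legs. In the contralateral PBS group, m864 was the highest leg for all 6 members.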
